A study of Mus musculus with 8 samples.

Results

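The genes described here are 196 mouse genes whose symbol is Zfp followed by a number and at most 1 letter, measured in pools of 2-cell embryos. Members were taken from probesets with 1 gene symbol, leaving out 2 symbols named by the rule, and each gene was read from its brightest probeset. A gene entered if its mean over the 8 arrays lay above the 30th percentile of all probeset means, a log2 value of 2.07. Of 248 genes with such a symbol, 196 passed, among 11444 genes tested and 14995 genes with a single-symbol probeset. Members were thus chosen by symbol and by mean level, so that level is given as a description, while differences between sires were not part of the rule. A gene near the level can still pass through the group where it is high, and its entry then depends on that difference. Just inside the level were Zfp316 (2.07), Zfp820 (2.11) and Zfp866 (2.12), and just outside it were Zfp628 (2.06), Zfp583 (2.06) and Zfp273 (2.05).

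Most Zfp genes encode proteins with arrays of C2H2 zinc fingers, short zinc-binding folds that read DNA sequence. A large class of them also carries a KRAB domain, which recruits the corepressor TRIM28 and with it the histone methyltransferase SETDB1, heterochromatin proteins and histone deacetylases. Such KRAB zinc finger proteins silence endogenous retroviruses and, in a few cases, hold the methylation of imprinted genes through the first divisions of the embryo. The symbol is broader than the class, since Zfp36 encodes a CCCH-type RNA-binding protein. Finger and KRAB domain counts per member were not analysed here.

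Embryos were named after their sire. Males were KDM1A TG (3 pools), nonTG (2 pools) or C57BL/6 (3 pools), and KDM1A is a histone lysine demethylase that acts on histone H3. The sample titles write KDM1A TG as TG3 and nonTG as nonTG3, without saying what the 3 stands for. All dams were C57BL/6, stimulated with 5 IU of eCG and of hCG, and embryos were collected from flushed oviducts at 46 to 48 hours after hCG, with 26 embryos per pool on average and 1 array per pool. The genotype of the embryos, the promoter of the transgene, the number of founder lines and whether pools of 1 group came from different males are not given in the labels, so p-values reflect only how far these pools vary, and that variation may be technical. The gene Kdm1a had no single-symbol probeset, so the transgene itself was not analysed here. RNA was measured in bulk, so fewer cells of a type and less RNA per cell cannot be told apart. Arrays correlated with each other at 0.889 to 0.967 over all probesets, and their number limits the precision.

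Cell type markers were followed as lists. A single-symbol probeset was found for 15 of 18 oocyte and 2-cell embryo genes and 14 of 16 oviduct epithelial genes. The same held for 14 of 14 stromal and smooth muscle genes and 7 of 12 blood and immune genes. All of these passed the filter except in the epithelial list, where 13 did. Most genes pass that filter, and no value could be set against background, so passing it does not show that a cell type was present. The epithelial mean was 6.50, 5.82 and 6.58 in KDM1A TG pools, 6.41 and 6.16 in nonTG pools and 5.88, 6.17 and 5.34 in C57BL/6 pools, on the deposited log2 scale. The stromal mean was 5.15, 4.91 and 6.66 in KDM1A TG pools, 5.94 and 4.16 in nonTG pools and 4.71, 4.80 and 3.86 in C57BL/6 pools. Against C57BL/6 pools, 2 stromal markers were called higher and 1 blood and immune marker lower in KDM1A TG pools. In both sire kinds against C57BL/6 pools, 4 stromal markers and 1 epithelial marker were called higher and 2 blood and immune markers lower. The part of these cells in the results was not tested. A fit with the epithelial mean is given below, and it cannot tell that mean and the sire apart.

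The promoters of 4 members on which the results turn are shown first, as the 250 bases before the annotated start in RefSeq, build GRCm38.p6, each read 5′ to 3′ on the strand of its gene. Zfp825 is shown because it was the one member called between sires with all arrays in the fit, Zfp982 and Zfp280b because they had the steepest positive slopes on embryo markers, and Zfp352 because it is a known 2-cell-stage gene among the members. Capitals mark matches, on either strand, to the GC box letters GGGCGG, to the box written CCAAT, or to the homeodomain core GGATTA.
Zfp825 promoter (chr13:74493962-74494211, minus strand): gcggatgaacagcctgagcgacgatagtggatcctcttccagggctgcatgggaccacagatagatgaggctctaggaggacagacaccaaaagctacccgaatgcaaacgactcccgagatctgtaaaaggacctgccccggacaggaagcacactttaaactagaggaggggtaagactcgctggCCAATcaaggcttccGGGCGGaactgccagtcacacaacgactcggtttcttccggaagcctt
Zfp982 promoter (chr4:147442864-147443113, plus strand): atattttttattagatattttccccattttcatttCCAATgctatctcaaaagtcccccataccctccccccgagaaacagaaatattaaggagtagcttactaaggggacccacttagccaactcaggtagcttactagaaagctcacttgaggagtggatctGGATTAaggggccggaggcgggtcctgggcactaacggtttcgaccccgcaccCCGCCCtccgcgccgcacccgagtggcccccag
Zfp280b promoter (chr10:76032362-76032611, plus strand): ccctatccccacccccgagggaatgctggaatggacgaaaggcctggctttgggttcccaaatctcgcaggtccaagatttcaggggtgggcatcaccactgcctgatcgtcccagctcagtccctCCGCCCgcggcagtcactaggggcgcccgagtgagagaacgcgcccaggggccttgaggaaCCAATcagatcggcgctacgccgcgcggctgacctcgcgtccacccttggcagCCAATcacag
Zfp352 promoter (chr4:90218570-90218819, plus strand): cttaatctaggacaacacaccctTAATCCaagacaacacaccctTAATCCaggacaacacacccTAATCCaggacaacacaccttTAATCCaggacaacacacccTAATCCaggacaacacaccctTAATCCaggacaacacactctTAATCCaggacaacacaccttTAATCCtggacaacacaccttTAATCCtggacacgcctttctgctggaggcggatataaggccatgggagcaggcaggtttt

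These windows differ in composition. The Zfp352 window holds 9 matches to GGATTA, the core letters read by OTX-type homeodomain proteins, inside a repeated unit, with 2 CG pairs and 47.2% GC. By contrast, the Zfp280b window holds 19 CG pairs at 64.4% GC, 1 match to the GC box and 2 to CCAAT. The Zfp825 window has 13 CG pairs and 1 match to the GC box and 1 to CCAAT. The Zfp982 window has 11 CG pairs and 1 match to each of these and to GGATTA. RefSeq lists other start sites for Zfp982, and the first window on the chromosome is printed.

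Over the family, 161 members had promoter entries outside chromosome 18, with 191 windows, against 32660 windows of 26864 other genes. Zfp windows had a median of 13 CG pairs and 55.6% GC, against 6 CG pairs and 52.4% GC for the other genes. GGGCGG, the letters of the GC box, stood in 50.8% of Zfp windows, against 32.6% of the others. CCAAT stood in 46.6% of Zfp windows, against 33.8%, and TATAAA in 5.76%, against 12.4%. For GGATTA the shares were 6.81% and 6.25%. A window without a match says only that these letters are not in it. Both strands were searched, and a CCAAT match can overlap a GC box where their letters join. Windows of neighbouring paralogs share sequence and are not independent, so these shares are descriptions. The other genes were not limited to protein-coding genes or to genes above the filter level, whereas all members passed that level. Whether the gaps are particular to Zfp genes was therefore not tested.

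In KDM1A TG pools compared with C57BL/6 pools, the question was whether embryos of transgenic sires differ from those of C57BL/6 sires. No Zfp gene passed the test (limma, Benjamini-Hochberg adjustment over all 11444 genes, threshold 0.05), where 0.725% of all genes did. At an unadjusted p under 0.05 stood 16 members, which is 8.16% of members against 14.2% of all genes tested. Of these, 11 were higher (5.61%, against 12.1% of all genes) and 5 lower (2.55%, against 2.1%). The median log2 change of the members was 0.06, against 0.18 over all genes, and 109 of 196 lay above 0 (55.6%, against 64.9% of all genes). In 29 members (14.8%, against 19.8% of all genes) the arrays of the groups did not overlap. The 95% interval of the change lay within 2-fold either way for 126 members (64.3%, against 51.5%), and for the rest a 2-fold difference lay inside the interval.

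Zfp873 had the smallest p of any member in that comparison. Its log2 value was 3.21, 3.40 and 3.18 in KDM1A TG pools, 3.17 and 1.81 in nonTG pools and 1.97, 1.93 and 2.52 in C57BL/6 pools. All KDM1A TG pools stood above all C57BL/6 pools, while the nonTG pools stood on either side of the C57BL/6 pools. The difference from C57BL/6 was 1.13 ± 0.33 (log2, SE), a fold of 2.19 with a 95% interval of 1.38 to 3.46, and its adjusted p of 0.0863 (limma) missed the threshold.

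Zfp36 encodes tristetraprolin, which binds AU-rich elements of mRNAs and brings about their decay. It read 5.85, 5.04 and 6.37 in KDM1A TG pools, 5.28 and 4.95 in nonTG pools and 5.23, 4.68 and 4.35 in C57BL/6 pools. One KDM1A TG pool lay below the highest C57BL/6 pool, so the groups overlap. The change was 0.999 ± 0.336 with an adjusted p of 0.148 (limma), and without KDM1A TG replicate 2 it was 1.36 with an adjusted p of 0.0381. That replicate also had the lowest epithelial and stromal means and the highest oocyte and 2-cell embryo mean of its group. The part of these means in the change was not tested. Zfp84 (0.81), Zfp930 (0.70) and Zfp358 (0.70) followed on the higher side, with adjusted p of 0.262, 0.319 and 0.326. The same replicate lowered the change of Zfp84, which was 1.23 (adjusted p = 0.0436, limma) without KDM1A TG replicate 2 and -0.0334 with it as the only KDM1A TG array.

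On the lower side the leading member was Zfp488, which in mouse takes part in oligodendrocyte differentiation. Its values were 3.06, 3.81 and 3.81 in KDM1A TG pools, 3.52 and 3.23 in nonTG pools and 4.61, 4.50 and 4.04 in C57BL/6 pools. Each pool of a KDM1A TG or nonTG sire lay below each C57BL/6 pool. The change in KDM1A TG pools was -0.83 ± 0.33 (adjusted p = 0.243, limma), and none of Zfp14 (-0.79), Zfp607b (-0.75), Zfp764 (-0.68), Zfp616 (-0.65) and Zfp316 (-0.63) passed either, with adjusted p of 0.255 to 0.356. Zfp316 (mean 2.07) averaged under the filter level over the KDM1A TG and nonTG pools together. It passed the filter only through the C57BL/6 pools where it is high, so its difference is a description.

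**Figure D1:**
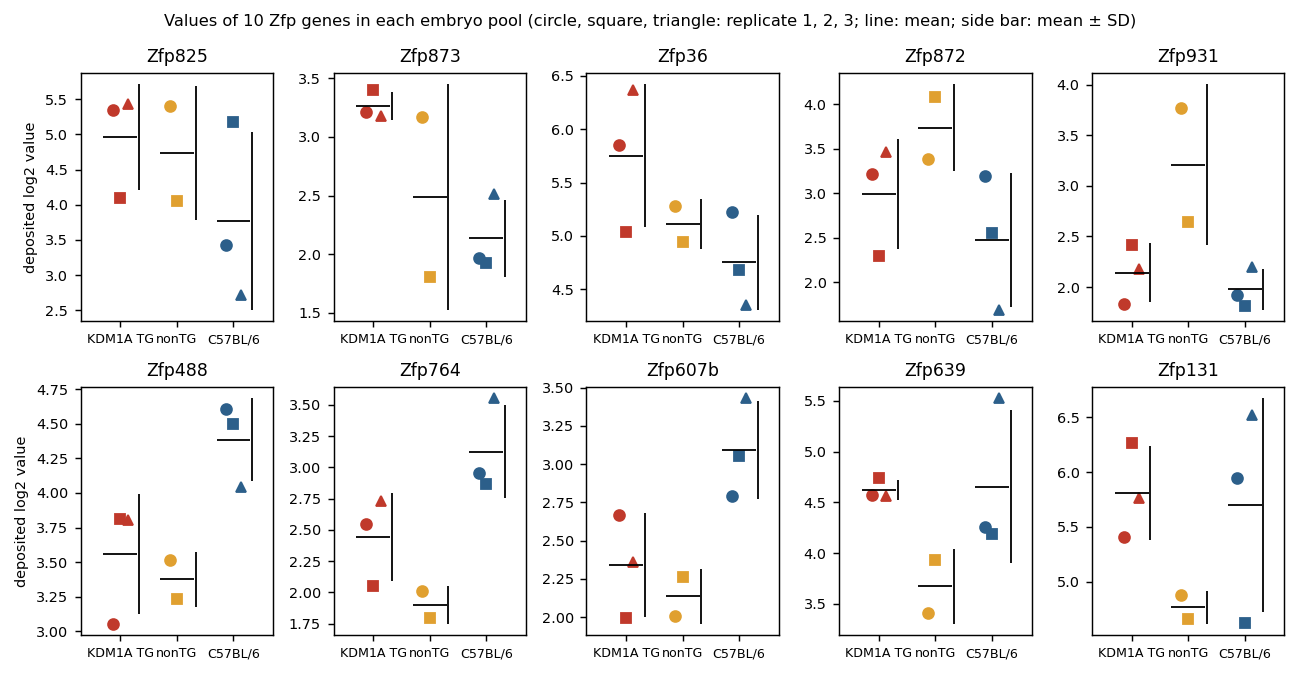
Deposited log2 values (vertical axis) of 10 Zfp genes in each pool, by sire (KDM1A TG, nonTG, C57BL/6), each point an array, with the group mean as a line and mean ± SD as a side bar (n = 3, 2 and 3). Zfp488, Zfp764 and Zfp607b stand lower in every pool of KDM1A TG and nonTG sires than in every C57BL/6 pool, whereas the groups overlap for Zfp825 and Zfp36.

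In nonTG pools compared with C57BL/6 pools, which asks how embryos of littermate sires without the transgene differ from those of C57BL/6 sires, no member passed the test either, against 0.131% of all genes. Unadjusted p was under 0.05 for 19 members (9.69%, against 8.22% of all genes). There were 6 higher (3.06%, against 4.61%) and 13 lower (6.63%, against 3.62%). Beside them, 0 of 15 oocyte and 2-cell embryo markers, which include the member Zfp352, lay above 0 (median -0.68). Of these markers 5 were lower at an unadjusted p under 0.05 and 0 were called, and their part in the count was not tested. The median change was 0.01, against 0.04 over all genes, and 101 members lay above 0 (51.5%, against 53.2%). Arrays did not overlap in 53 members (27%, against 24.8%). With 2 pools in the nonTG group the intervals were wider, and 78 members (39.8%, against 44.6%) were bounded within 2-fold. These changes share the C57BL/6 pools with the comparison above, so agreement between both is not separate evidence.

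Zfp931 read 3.77 and 2.65 in nonTG pools and 1.92, 1.81 and 2.20 in C57BL/6 pools. Both nonTG pools lay above the KDM1A TG pools (1.83, 2.41 and 2.17) and above the C57BL/6 pools. Over the KDM1A TG and C57BL/6 pools Zfp931 averaged under the filter level of 2.07. It passed the filter only through the nonTG pools where it is high, so its difference is given as a description. The change in nonTG pools was 1.23 ± 0.37 (adjusted p = 0.174, limma). For Zfp872 the values were 3.39 and 4.08 in nonTG pools and 3.19, 2.55 and 1.69 in C57BL/6 pools, a change of 1.26 ± 0.39 (adjusted p = 0.196). Zfp62 (0.81), Zfp408 (0.79) and Zfp820 (0.78) came next, with adjusted p of 0.529, 0.557 and 0.596 (limma). Zfp820 (mean 2.11) also passed the filter only through the nonTG pools where it is high.

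The member with the smallest p in the nonTG comparison was Zfp764. It read 2.55, 2.05 and 2.73 in KDM1A TG pools, 2.01 and 1.79 in nonTG pools and 2.95, 2.87 and 3.55 in C57BL/6 pools. The 3 groups did not overlap for this gene, with nonTG pools lowest and C57BL/6 pools highest. Against C57BL/6, the change was -1.22 ± 0.36 in nonTG pools (a fold of 0.428, 95% interval 0.259 to 0.708, adjusted p = 0.167) and -0.68 ± 0.33 in KDM1A TG pools. Zfp488 (-1.01), Zfp639 (-0.98), Zfp607b (-0.95), Zfp109 (-0.94) and Zfp131 (-0.93) had adjusted p of 0.357 to 0.458.

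In KDM1A TG pools compared with nonTG pools, which sets transgenic sires against their littermates, no member passed, against 0.0437% of all genes. Unadjusted p was under 0.05 for 20 members (10.2%, against 6.41% of all genes), 15 of them higher (7.65%, against 4.97%) and 5 lower (2.55%, against 1.43%). Beside them, 15 of 15 oocyte and 2-cell embryo markers (median 0.57, the member Zfp352 included) and 14 of 14 stromal markers (median 0.50) lay above 0. None of these markers was called, and their part in the count was not tested. The median change was 0.14, against 0.16 over all genes, and 120 members lay above 0 (61.2%, against 65.4%). Arrays did not overlap in 48 members (24.5%, against 22.4%), and 90 members were bounded within 2-fold (45.9%, against 47.3%). The smallest adjusted p of any member was 0.551.

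Zfp131 encodes a BTB zinc finger transcription factor. Its values were 5.41, 6.26 and 5.76 in KDM1A TG pools, 4.88 and 4.66 in nonTG pools and 5.95, 4.63 and 6.52 in C57BL/6 pools. KDM1A TG pools lay above nonTG pools, and the C57BL/6 pools spanned both. The change of KDM1A TG over nonTG was 1.04 ± 0.39 (adjusted p = 0.632, limma). Zfp639 read 4.57, 4.74 and 4.56 in KDM1A TG pools and 3.41 and 3.94 in nonTG pools, a change of 0.95 ± 0.37 (adjusted p = 0.705). Zfp180 (1.001), Zfp791 (0.97), Zfp948 (0.95) and Zfp58 (0.92) were also on the higher side, and Zfp931 (-1.07), Zfp182 (-0.90), Zfp820 (-0.79), Zfp959 (-0.78), Zfp781 (-0.73) and Zfp641 (-0.71) on the lower side, all with adjusted p of 0.551 or more. Several of these genes sit close to the filter level, Zfp820 at 2.11 among them. Zfp931 and Zfp820 passed the filter only through the nonTG pools where they are high, so their differences are descriptions.

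**Figure D2:**
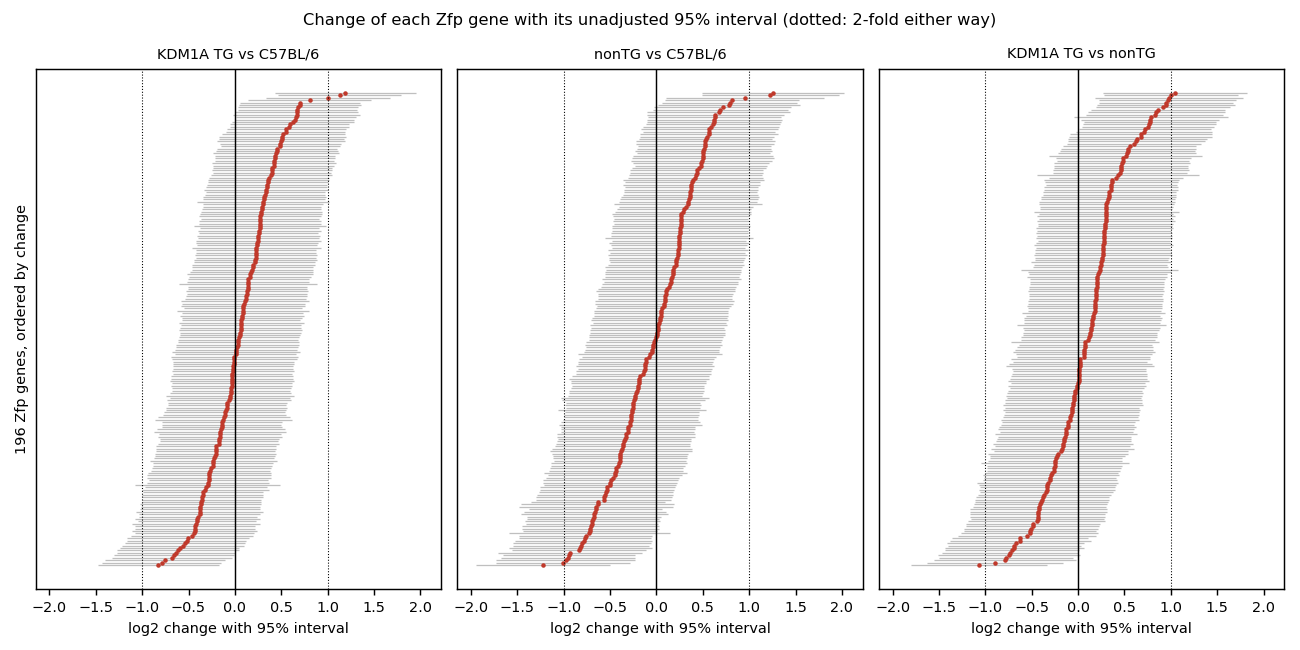
Log2 change (horizontal axis) of each of the 196 Zfp genes with its unadjusted 95% interval, ordered by change, in the 3 pairwise comparisons of sires. Points outside the dotted 2-fold lines are few in each panel, and most intervals cross 0.

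With both sire kinds taken as 1 group of 5 pools against 3 C57BL/6 pools, 1 member passed the test, Zfp825, higher in the 5 pools, against 1.32% of all genes. Unadjusted p was under 0.05 for 15 members (7.65%, against 12.8% of all genes), of which 7 were higher (3.57%, against 10.1%) and 8 lower (4.08%, against 2.63%). Arrays did not overlap in 15 members (7.65%, against 8.17%). The median change was 0.03, against 0.12 over all genes, and 107 members lay above 0 (54.6%, against 60.6%). Bounded within 2-fold were 149 members (76%, against 68.6%). Zfp764 (-0.90 ± 0.30), Zfp488 (-0.90 ± 0.30), Zfp607b (-0.83 ± 0.30) and Zfp59 (-0.62 ± 0.30) were among those without overlap, with adjusted p of 0.12, 0.117, 0.168 and 0.364, and Zfp266 (0.69 ± 0.30, adjusted p = 0.3) was on the higher side.

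Zfp825 read 5.35, 4.10 and 5.44 in KDM1A TG pools, 5.41 and 4.06 in nonTG pools and 3.43, 5.17 and 2.71 in C57BL/6 pools. The groups overlap, because C57BL/6 replicate 2 lies above KDM1A TG replicate 2 and nonTG replicate 2. The change was 1.10 ± 0.32 (log2, SE), a fold of 2.14 with a 95% interval of 1.39 to 3.30 and an adjusted p of 0.049998 (limma), just under the threshold. limma shrinks the spread of each gene towards a common one, here with 219 prior degrees of freedom against 6 residual ones, so the SD used for Zfp825 was 0.434 where its own was 0.938. An exact permutation test of this single value over all 56 splits gave p = 0.143, where the smallest possible is 0.0179. With each gene's own variance, a fit added after seeing the data, 0 members and 0 of all genes were called in this comparison.

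The value of Zfp825 also moved with the epithelial mean given above. In the same comparison 14 of 14 stromal markers (median 0.93) and 13 of 13 epithelial markers (median 0.37) lay above 0, against 2 of 7 blood and immune markers (median -0.11). Above 0 were also 1 of 15 oocyte and 2-cell embryo markers (median -0.37, the member Zfp352 included) and 0 of 6 cumulus and granulosa markers (median -0.22). The part of these lists in this call was not tested. With the epithelial mean as a covariate the change of Zfp825 was -0.02 in KDM1A TG pools (adjusted p = 0.989, limma), -0.22 in nonTG pools (adjusted p = 0.962) and -0.10 in both together (adjusted p = 0.972), the opposite sign from the fit without it. The epithelial markers themselves differ with sire in these pools, so that fit cannot tell the epithelial mean and the sire apart. Zfp825 also had a slope of -2.43 on the oocyte and 2-cell embryo mean (adjusted p = 0.000195, limma). Leaving out single arrays moved the change of Zfp825 in both sire kinds between 0.57 without C57BL/6 replicate 3 (adjusted p = 0.639, limma) and 1.80 without C57BL/6 replicate 2 (adjusted p = 0.00018).

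**Figure D3:**
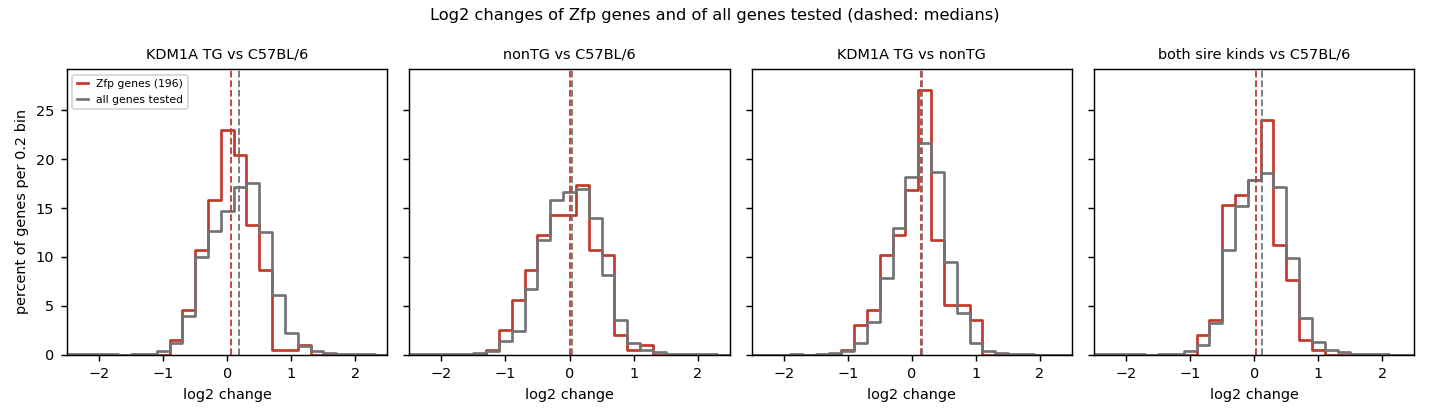
Distribution of log2 changes (horizontal axis) as percent of genes per bin of 0.2, for the 196 Zfp genes and for all genes tested, in 4 comparisons of sires, with medians dashed. The Zfp median minus the median of all genes was -0.12 in KDM1A TG against C57BL/6, -0.0254 in nonTG against C57BL/6, -0.0164 in KDM1A TG against nonTG and -0.0847 in both sire kinds against C57BL/6. The gaps in nonTG against C57BL/6 and in KDM1A TG against nonTG are under the SD of this gap between arrays within groups, 0.053.

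Relative to all genes tested, the Zfp genes lay lower in KDM1A TG pools, by an amount that depends on the filter and the scaling. The difference of medians from C57BL/6 pools, -0.12, was -0.0309 with no filter, -0.19 with the filter at the 50th percentile and -0.0656 with quantile normalization. The Zfp median minus the median of all genes within an array was -0.43, -0.38 and -0.53 in KDM1A TG pools, -0.31 and -0.30 in nonTG pools and -0.29, -0.32 and -0.26 in C57BL/6 pools. KDM1A TG pools did not overlap the others. The Zfp median itself was 3.21, 3.11 and 3.24 in KDM1A TG pools, 3.17 and 3.11 in nonTG pools and 3.11, 3.14 and 3.16 in C57BL/6 pools, while that of all genes was 3.64, 3.48 and 3.77, then 3.48 and 3.41, then 3.41, 3.46 and 3.42. The interquartile range over all probesets was 2.38, 2.09 and 2.60 in KDM1A TG pools, 2.06 and 1.87 in nonTG pools and 1.91, 2.02 and 1.96 in C57BL/6 pools, so the 3 arrays with the widest range were those with the lowest relative Zfp median. The part of this range in the result was not tested beyond the scalings and filters given in the closing section. Zfp genes had a lower mean level than all genes tested (median 3.11, against 3.48) at a like spread within groups (median SD 0.361, against 0.360).

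Members with roles in chromatin and development were counted by list. Of 8 listed genes of early embryos and pluripotent cells, 6 were tested, and none passed in any of the 4 comparisons. Zfp296, a factor of pluripotent cells, read 4.79, 4.60 and 4.52 in KDM1A TG pools, 3.31 and 4.32 in nonTG pools and 4.25, 3.98 and 4.87 in C57BL/6 pools, and its change of KDM1A TG over nonTG was 0.83 ± 0.37 (adjusted p = 0.772). Changes of the list had a median of 0.25 in KDM1A TG against C57BL/6 pools, against 0.18 over all genes, and of -0.13 in nonTG against C57BL/6 pools, against 0.04. Zfp462 (0.43), Zfp281 (-0.20) and Zfp322a (0.33), which act in embryonic stem cells, had adjusted p of 0.519 to 0.769 in KDM1A TG against C57BL/6 pools.

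Of 16 listed partners of chromatin and corepressor complexes, 9 were tested and none was called. Zfp516 read 3.77, 3.58 and 3.60 in KDM1A TG pools, 3.57 and 3.22 in nonTG pools and 2.58, 3.37 and 2.97 in C57BL/6 pools. All KDM1A TG pools exceeded all C57BL/6 pools, a change of 0.68 ± 0.32 (adjusted p = 0.334). Zfp148 (0.58 ± 0.32, adjusted p = 0.393) also had no overlap, whereas Zfp592 (0.01 ± 0.35) did.

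Of 14 listed genes of RNA binding, ribosomes and the spindle, 8 were tested and none was called. Zfp330, a nucleolar protein, read 7.33, 7.34 and 7.37 in KDM1A TG pools, 7.23 and 6.86 in nonTG pools and 7.86, 7.80 and 7.56 in C57BL/6 pools. The 3 groups did not overlap, and its change was -0.39 ± 0.32 in KDM1A TG (adjusted p = 0.547) and -0.70 ± 0.36 in nonTG (adjusted p = 0.619). Zfp346, which binds double-stranded RNA, and Zfp106, an RNA-binding protein of motor neurons, had log2 changes of -0.04 and 0.27 in KDM1A TG against C57BL/6 pools, with adjusted p of 0.963 and 0.691. Of 16 listed genes of differentiation, 8 were tested, and Zfp503 (0.63), Zfp704 (0.51) and Zfp467 (0.12) missed the threshold beside Zfp488, with adjusted p of 0.373, 0.479 and 0.866.

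Of 6 listed genes of provirus and imprint silencing, 4 had a single-symbol probeset, and of these only Zfp445 passed the filter. It encodes a KRAB zinc finger protein that maintains methylation at imprinted genes, and read 4.54, 3.91 and 4.84 in KDM1A TG pools, 4.34 and 3.58 in nonTG pools and 3.81, 4.09 and 4.14 in C57BL/6 pools. The groups overlap, and its change in KDM1A TG was 0.42 ± 0.33 (adjusted p = 0.534). Of 27 listed cofactors of the KRAB pathway, 14 were tested, and none was called in any of the 4 comparisons. Their median change was 0.36 in KDM1A TG against C57BL/6 pools with 12 of 14 above 0, where all genes had a median of 0.18 and 64.9% above 0. In nonTG against C57BL/6 pools it was 0.03 with 8 above 0 (all genes 0.04 and 53.2%), and in KDM1A TG against nonTG pools 0.36 with 12 above 0 (all genes 0.16 and 65.4%). For both sire kinds against C57BL/6 pools it was 0.30 with 11 above 0 (all genes 0.12 and 60.6%).

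The 8 members with the highest mean value were Zfp706 (7.91), Zfp526 (7.56), Zfp330 (7.42), Zfp955b (6.16), Zfp280b (6.15), Zfp277 (5.54), Zfp131 (5.51) and Zfp622 (5.44), as deposited means that depend on each probeset and do not rank the transcripts. Zfp706, which in mouse embryonic stem cells restrains the pluripotency factor Klf4, read 7.87, 8.25 and 7.72 in KDM1A TG pools, 7.34 and 8.20 in nonTG pools and 8.09, 7.65 and 8.15 in C57BL/6 pools. Its change was -0.01 ± 0.33 in KDM1A TG and -0.19 ± 0.37 in nonTG. For Zfp622, a protein of ribosome biogenesis, these changes were 0.06 ± 0.33 and -0.22 ± 0.36, and none of them passed the test.

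The members with the largest SD over arrays were Zfp825 (1.04), Zfp982 (0.978), Zfp936 (0.865) and Zfp280b (0.825). Zfp982 read 3.37, 5.00 and 4.18 in KDM1A TG pools, 3.08 and 4.42 in nonTG pools and 4.99, 2.91 and 5.53 in C57BL/6 pools. Zfp936 read 5.19, 5.43 and 4.66 in KDM1A TG pools, 3.56 and 5.04 in nonTG pools and 3.88, 4.67 and 6.29 in C57BL/6 pools. Zfp280b read 5.56, 6.99 and 6.14 in KDM1A TG pools, 4.70 and 6.74 in nonTG pools and 6.24, 5.66 and 7.16 in C57BL/6 pools. These genes varied within each sire group, and no sire comparison of Zfp982, Zfp936 or Zfp280b had an adjusted p under 0.535. With C57BL/6 replicate 2 left out, Zfp982 was called lower in both sire kinds against C57BL/6 pools.

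To set out that spread, each gene was fitted with a slope on a marker mean beside the sire groups, a choice made after seeing the data. The oocyte and 2-cell embryo mean, over 14 listed genes that are no members, was 4.79, 5.36 and 4.85 in KDM1A TG pools, 4.08 and 4.68 in nonTG pools and 5.48, 4.64 and 5.36 in C57BL/6 pools. On it, 4 members had a positive slope past the threshold (2.04%, against 1.15% of all genes) and 3 a negative one (1.53%, against 0.996%). Zfp982 had a slope of 2.62 ± 0.41 per log2 unit of the marker mean (adjusted p = 5.02e-05, limma), Zfp280b of 1.94 ± 0.43 (adjusted p = 0.0083), Zfp352 of 1.51 ± 0.42 (adjusted p = 0.0351) and Zfp939 of 1.51 ± 0.43 (adjusted p = 0.0426). Zfp825 had a slope of -2.43 ± 0.41 (adjusted p = 0.000195), Zfp975 of -1.76 ± 0.42 (adjusted p = 0.0148) and Zfp11 of -1.42 ± 0.41 (adjusted p = 0.048). Zfp352, expressed at the 2-cell stage in mouse, read 2.89, 3.87 and 2.34 in KDM1A TG pools, 2.17 and 3.29 in nonTG pools and 3.45, 2.32 and 2.63 in C57BL/6 pools. Its change between sires was 0.23 in KDM1A TG (adjusted p = 0.756) and -0.07 in nonTG (adjusted p = 0.964).

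On the epithelial mean, 2 members had a positive slope past the threshold (1.02%, against 1.09% of all genes) and 4 a negative one (2.04%, against 0.498%). Zfp825 had a slope of 2.40 ± 0.43 (adjusted p = 0.00313, limma) and Zfp704 of 1.45 ± 0.40 (adjusted p = 0.0495). Zfp982 (-2.37), Zfp942 (-1.87), Zfp939 (-1.84) and Zfp280b (-1.92) were the negative ones, with adjusted p of 0.00769 to 0.0241. The slopes rest on few arrays. Without the 2 arrays farthest from the median of the marker mean, C57BL/6 replicate 3 and KDM1A TG replicate 3, 0 of the 6 epithelial calls were kept, although all 6 had the same sign. Without nonTG replicate 1 and C57BL/6 replicate 1, 3 of 4 positive and 1 of 3 negative embryo calls were kept, and with each gene's own variance no slope of any gene was called. Zfp352 was among the embryo calls not kept without nonTG replicate 1 and C57BL/6 replicate 1, where its slope was 1.20. The 2 marker means come from the same arrays, so their slopes are not separate evidence.

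**Figure D4:**
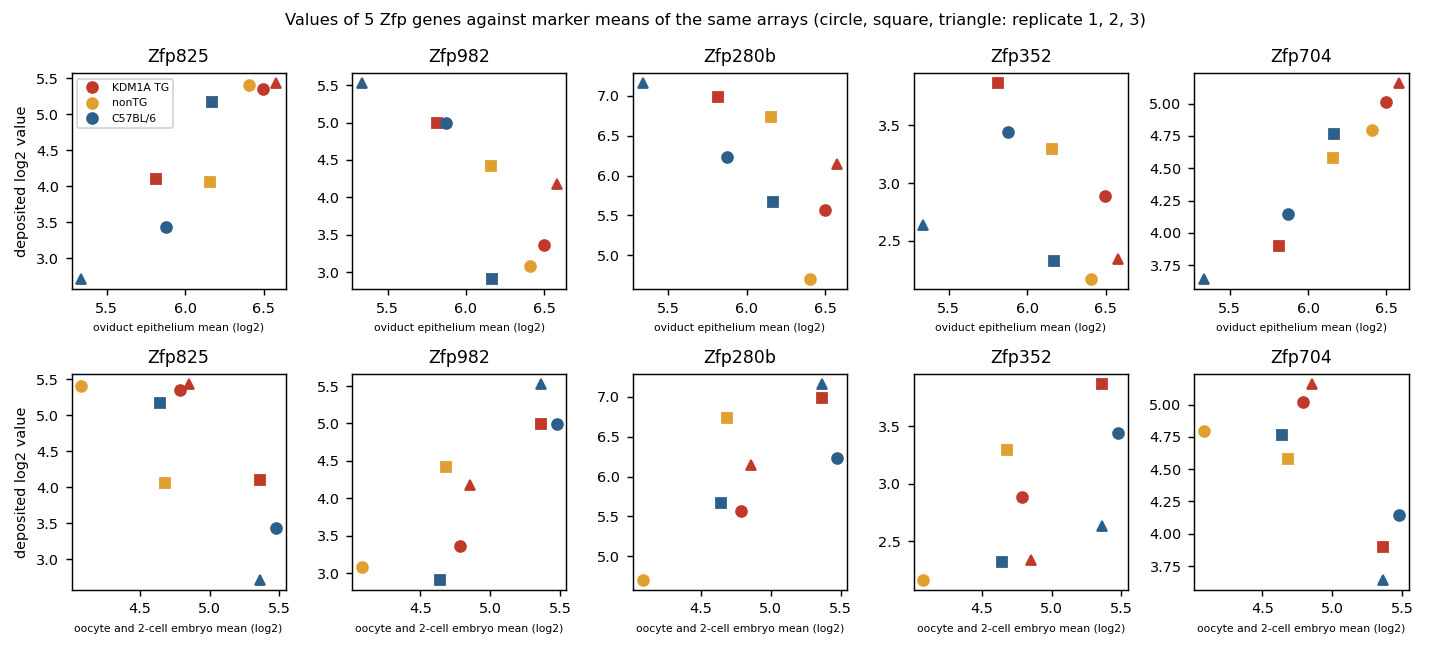
Deposited log2 values of 5 Zfp genes (vertical axes) against the oviduct epithelium mean (upper row) and the oocyte and 2-cell embryo mean (lower row) of the same arrays, coloured by sire. Zfp825 and Zfp704 are high where the epithelial mean is high, and Zfp982, Zfp280b and Zfp352 tend to be high where the embryo mean is high, with pools of each sire spread along both axes.

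By RefSeq gene order (GRCm38.p6), all 196 members were found by gene identifier, 195 of them as protein coding. Chromosome 7 held 45 members, chromosome 17 held 21, chromosome 13 held 17, and chromosomes 4 and 8 held 15 each. Counting as neighbours members with at most 2 other protein-coding genes between them, 87 members made up 26 runs, and 39 made up 7 runs of 4 or more. The longest run, on chromosome 17, had 9 members from Zfp948 to Zfp994, whose changes in KDM1A TG against C57BL/6 pools went both ways, between -0.38 and 0.68. A run of 4 on chromosome 4 (Zfp982, Zfp979, Zfp984 and Zfp933) had 1 member above 0 in KDM1A TG against C57BL/6 pools (median -0.31) and 0 of 4 in nonTG against C57BL/6 pools (median -0.67). A run of 5 on chromosome 7 (Zfp180, Zfp114, Zfp111, Zfp109 and Zfp108) had 2 above 0 in KDM1A TG (median -0.17) and 0 of 5 in nonTG (median -0.37). No member of either run was called in these comparisons, both runs were singled out after their values were seen, and no test was made of them. Neighbouring Zfp genes are close paralogs, and their probesets may bind transcripts of each other, so they are not independent.

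**Figure D5:**
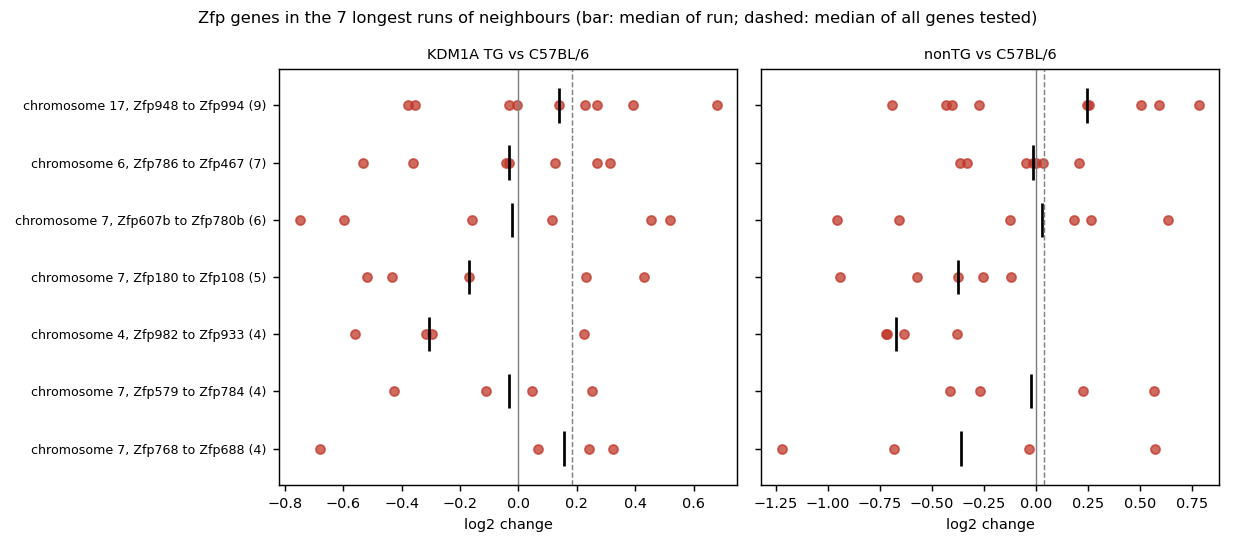
Log2 change (horizontal axis) of each Zfp gene in the 7 longest runs of neighbouring members, in KDM1A TG (left) and nonTG (right) against C57BL/6, with the run's median as a bar and the median of all genes dashed. Changes within most runs fall on both sides of 0, and in nonTG pools the runs on chromosome 4 and from Zfp180 to Zfp108 on chromosome 7 lie wholly below 0.

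Other probesets of the same gene gave a measure of how far such values hold. For Zfp979, whose brightest probeset gave a difference of -0.71 in nonTG against C57BL/6 pools, another probeset gave -1.01 and the dimmest, with a mean of 1.05, gave 0.19. For Zfp939 the difference of KDM1A TG over nonTG was 0.98 by the brightest probeset and 0.25 by the other. For Zfp937 the difference of KDM1A TG over nonTG had opposite signs, 0.67 by the brightest probeset and -0.54 by the other, whose mean was 1.64. In nonTG against C57BL/6 pools these probesets of Zfp937 gave -0.82 and 0.004. For Zfp106 both probesets gave positive differences in KDM1A TG against C57BL/6 pools, of 0.27 and 0.51. Not every member with several probesets is given here.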

How the data were processed

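RNA from 8 embryo pools was measured on Affymetrix arrays. The authors deposited log2 expression summaries per probeset, and R 3.1.0, oligo, RMA and limma are named per the submitters' processing notes, without roles. For background correction and annotation version the sources used here give nothing. Scanner files were not used. Of 22961 probesets, 15745 carried 1 symbol in the platform annotation, 1320 several and 5896 were unnamed here. The deposited log2 values were used unscaled. A model of group means (lmFit, eBayes, limma 3.58.1 in R 4.3.3) took all 8 arrays, with two-sided tests and Benjamini-Hochberg adjustment over 11444 genes. limma used 73 prior against 5 residual degrees of freedom for the 3 sire groups, so each gene's own spread had little weight. The fitting code was tested on simulated data.

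Members, gene lists and alternatives were chosen with earlier results of these data known. Named genes were called members, the 6 with the smallest p on each side of each comparison, the 8 of highest mean, the 4 of largest SD and up to 4 per role list. Others named were chosen after their values were seen. Alternatives were the filter, scaling, probeset choice, variance model, array weights, replicate block, marker covariate and left-out arrays. Same-numbered arrays correlated at -0.378 to 0.179 in their deviations from group means. So few arrays cannot show whether replicate numbers pair the pools, which the labels do not say, and the main fit took no pairing. The p-value threshold was 0.05, and depth does not apply to arrays, whose number limits the precision. Promoters came from RefSeq.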

Additional observations from a re-analysis of the deposited data

How the results depend on the processing

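With KDM1A TG against C57BL/6 pools, 1 Zfp gene was called with no filter (138 of all genes), 1 with median centring (151) and 1 at an adjusted p under 0.10 (174). Array weights gave 16 (13 higher, among 1694 genes called in all, against 83 in the fit without weights). Leaving out single arrays gave 0 to 2 (9 to 254 of all genes). In nonTG against C57BL/6 pools 0 to 2 were called with single C57BL/6 or KDM1A TG arrays left out (4 to 80 of all genes). Those called were Zfp131 and Zfp825 without C57BL/6 replicate 2. In KDM1A TG against nonTG pools 0 were called under every alternative run. For both sire kinds, 0 were called with the filter at the 50th percentile, with quantile normalization, with cyclic loess, with the mean of probesets, with the marker covariate, with each gene's own variance and with KDM1A TG replicate 2 as the only KDM1A TG array (0 to 95 of all genes). Array weights gave 5 (735 of all genes). Leaving out single arrays gave 0 to 2 (18 to 279 of all genes), with Zfp825 and Zfp982 called without C57BL/6 replicate 2, and Zfp825 and Zfp872 without KDM1A TG replicate 2. With the replicate block 0 were called for both sire kinds, Zfp825 having a change of 1.05 (adjusted p = 0.0675), although the numbers share no source in the labels. The Zfp median minus that of all genes in KDM1A TG against C57BL/6 pools, -0.12, was -0.0309 with no filter, -0.19 with the filter at the 50th percentile, -0.0656 with quantile normalization and -0.178 to -0.0854 with single arrays left out. For both sire kinds, -0.08, it was -0.0222 with no filter, -0.0189 with cyclic loess and -0.116 to -0.0501 with single arrays left out. With single arrays left out it was -0.0823 to 0.00771 in nonTG against C57BL/6 pools and -0.0843 to -0.0164 in KDM1A TG against nonTG pools. Of 1032 values of named genes under alternatives, 995 kept their direction and side of the threshold. That count does not measure robustness. Several alternatives cannot alter a change itself, and every named value except that of Zfp825 in both sire kinds was uncalled at the outset. The sign turned in 4 of the values, namely Zfp825 with the marker covariate (-0.022, -0.217 and -0.102 in KDM1A TG, nonTG and both together) and Zfp84 in KDM1A TG with replicate 2 as the only KDM1A TG array (-0.0334). The slope calls were 0 to 10 on the epithelial mean (30 to 307 of all genes) and 1 to 8 on the embryo mean (11 to 470 of all genes) with single arrays left out. The slopes and the fit with each gene's own variance were added after seeing the data. The cause of these changes was not tested. No value could be set against background signal, since scanner files were not used.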
